A study of Homo sapiens with 30 samples.

Results

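The 6 libraries described here come from A375 cells, a human cutaneous melanoma line in long-term culture, that had been sorted as positive for surface integrin β4 (ITGB4). Of the 6, 3 are from sorted positive cells that met no membrane (parental positive) and 3 are from cells that were first sorted positive and then taken through 5 rounds of transwell migration, in each of which the cells below the filter were kept and grown out for the next round (crossed). They were chosen by their titles and make up 6 of the 30 libraries of the series, which holds 10 groups of 3. The membrane carried 5 µm pores and a fibronectin coat, and positive cells were those stained above a gate drawn on unstained cells. The labels do not say whether the crossed cells were sorted again before RNA was taken, which sorter handled which sample, or whether the 3 replicates of a group were separate cultures. The series title asks which differences pre-exist and which are induced by constricted migration, and here the starting sort was the same on both sides. Crossing, the growth between rounds and the extra time in culture cannot be told apart. The p-values below rest on the spread between libraries within groups, taken over all 30 libraries unless stated. That spread may be technical. Other groups serve only as points of reference: the negative sort before (parental negative) and after 4 rounds (negative crossed 4), positive cells that failed to cross in 5 rounds (Top 5 positive), and positive cells that crossed in 10 rounds (Bottom 10 positive).

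Integrin β4 pairs with integrin α6 to bind laminin, and through the cytolinkers plectin and BPAG1 it ties intermediate filaments to the basement membrane at hemidesmosomes. A pore narrower than the nucleus forces a cell to deform its nucleus and to remodel its adhesions while it passes, a setting known as constricted migration. Melanoma lines occupy states along a range from pigmented (melanocytic) through neural crest-like to dedifferentiated, and A375 belongs to the weakly pigmented lines.

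Polyadenylated RNA was measured as reads per gene. The 6 libraries held 17138637 to 25289509 gene counts and 17463 to 18162 genes with at least 1 count. Of 26364 listed genes, 15381 had enough counts to be tested. Levels are CPM, counts scaled to a common normalized library size, and differences are log2 fold changes, crossed minus parental positive, with the standard error (SE) of the fit. The median SD of log2 CPM between replicates was 0.213 in the parental positive and 0.207 in the crossed group, against 0.238 to 0.48 in the other 8 groups, so these were the 2 tightest groups by this measure. None of the 6 was among the 6 libraries of the series with an outlying score on the second principal component. Within the parental group replicate 3 departed from the other 2 in many of the genes below, and results without it are given. Melanoma line genes were present, with SOX10 at 441 to 935 CPM and CSPG4 at 471 to 1385 CPM, and MITF at 31.6 to 64.9 CPM. Of the pigment genes TYR had 0 counts in all 6 libraries, MLANA reached at most 0.54 CPM and PMEL 1.37 CPM, and DCT passed 0.38 CPM in parental replicate 3 alone. The 12 immune markers summed to 57.0 to 89.3 CPM in parental and 60.4 to 135 CPM in crossed libraries, nearly all of it CD68, a lysosomal protein (49.9 to 129 CPM), and LYZ (4.21 to 8.51 CPM). CD14 and CSF1R were at most 0.90 CPM, 6 to 8 of the 12 were at 0 in a library, and CD3E, CD2, MS4A1 and FCGR3A were at 0 in all 6. The fibroblast markers (8 genes) summed to 13.2 to 29.5 CPM in parental and 13.8 to 27.9 CPM in crossed libraries. The endothelial markers (9 genes) summed to 8.37 to 25.0 and 7.65 to 16.3 CPM. Keratinocyte markers were mixed: DSG3, PKP1, IVL and LOR did not pass 0.05 CPM in any library. KRT10 (72.9 to 131 CPM), KRT14 (13.0 to 33.0 CPM) and SFN (1.17 to 18.3 CPM) were present in all 6.

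Few genes separated crossed from parental positive cells. PXDN, which encodes the basement membrane enzyme peroxidasin that crosslinks collagen IV, rose, and 5 genes fell: SOX11, a transcription factor of neural development, LPL, the lipase that releases fatty acids from lipoproteins, SORCS1, a neuronal sorting receptor, TMEM178B, a membrane protein, and ZNF536, a zinc-finger repressor of neuronal differentiation. These 6 are the genes past an adjusted p of 0.05 in the edgeR quasi-likelihood test (Benjamini-Hochberg over all genes), 0.039% of those tested, with 0.0065% higher and 0.0325% lower, and "called" below means by edgeR unless DESeq2 is named. At an unadjusted p under 0.05 there were 463 genes, 3.01% of those tested (169 or 1.1% higher and 294 or 1.91% lower). Chance alone would give 769. This number depends on the fit, which takes its spread from all 10 groups, of which these 2 were the tightest. With edgeR fitted on the 6 libraries alone, 1167 of 14326 tested genes passed the same threshold. DESeq2 on all 30 libraries called 24 genes, 4 higher and 20 lower, and held all 6.

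Because the 5 fallen genes moved together and PXDN moved the other way, the 250 bases upstream of the start site are shown for 4 of the 6 called genes. SOX11 had no usable entry in the RefSeq promoter table (GRCh38.p14), and LPL is not shown. The 4 sequences run 5′ to 3′ on the gene's strand. They lie at chr2:1744516-1744765 (minus strand) for PXDN, chr10:107164707-107164956 (minus strand) for SORCS1, chr7:141073814-141074063 (plus strand) for TMEM178B and chr19:30225342-30225591 (plus strand) for ZNF536. Capitals mark matches to any of 5 short motifs searched on both strands.
PXDN: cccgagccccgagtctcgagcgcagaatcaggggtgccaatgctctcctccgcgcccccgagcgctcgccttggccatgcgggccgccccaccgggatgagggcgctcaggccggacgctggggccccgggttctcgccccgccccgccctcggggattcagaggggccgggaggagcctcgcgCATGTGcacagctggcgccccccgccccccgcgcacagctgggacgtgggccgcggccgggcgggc
SORCS1: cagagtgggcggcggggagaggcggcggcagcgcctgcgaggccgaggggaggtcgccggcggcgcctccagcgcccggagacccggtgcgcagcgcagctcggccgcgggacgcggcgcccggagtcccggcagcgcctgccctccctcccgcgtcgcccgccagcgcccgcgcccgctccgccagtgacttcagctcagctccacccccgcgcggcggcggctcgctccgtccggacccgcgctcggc
TMEM178B: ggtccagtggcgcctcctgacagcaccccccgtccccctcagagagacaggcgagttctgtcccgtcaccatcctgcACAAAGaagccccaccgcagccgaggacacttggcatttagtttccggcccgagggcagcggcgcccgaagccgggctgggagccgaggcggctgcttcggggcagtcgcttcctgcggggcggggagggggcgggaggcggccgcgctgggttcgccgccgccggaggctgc
ZNF536: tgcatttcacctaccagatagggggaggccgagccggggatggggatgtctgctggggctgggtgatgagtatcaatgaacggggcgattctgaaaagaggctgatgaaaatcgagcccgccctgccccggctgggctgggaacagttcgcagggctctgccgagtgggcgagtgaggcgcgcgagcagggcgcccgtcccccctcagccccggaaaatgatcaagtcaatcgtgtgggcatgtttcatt
The motifs were AP-1 (TGANTCA), TEAD (GGAATG), the E-box CACGTG, the M-box CATGTG bound by MITF, and SOX (ACAAAG). The PXDN window held 1 M-box match, which 9.42% of 35116 RefSeq promoter windows of this length held, and the TMEM178B window 1 SOX match, which 13.7% held. The windows of SORCS1 and ZNF536 held none of the 5, and AP-1 and E-box letters, found in 6.57 and 6.34% of all windows, were in none of the 4. G and C made up 78.4% of the PXDN, 82.4% of the SORCS1, 72.8% of the TMEM178B and 61.6% of the ZNF536 window. A match is a match of letters and no evidence of binding.

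PXDN stood at 6.72, 5.45 and 5.50 CPM in parental positive replicates 1 to 3 and at 22.2, 34.8 and 19.9 CPM in the crossed libraries. The groups did not overlap: the lowest crossed library was well above the highest parental one, and the parental values were close together. The log2 fold change was 2.12 ± 0.37 (4.34-fold, edgeR adjusted p = 0.0302). The call did not survive the loss of any 1 of the 6 libraries (edgeR adjusted p from 0.0577 to 0.441), but the log2 fold change stayed between 1.83 and 2.27, and PXDN was also the 1 gene called when the fit held only the 12 parental and presorted libraries.

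SOX11 stood at 31.7, 24.8 and 52.5 CPM in the parental libraries and at 14.2, 11.9 and 9.81 CPM in the crossed ones. All 3 crossed libraries were below all parental ones, and parental replicate 3 was the highest. It fell by 1.60 ± 0.29 on the log2 scale (3.04-fold lower, edgeR adjusted p = 0.0388). LPL stood at 9.52, 7.31 and 20.8 CPM before and 4.17, 3.07 and 2.72 CPM after crossing, again without overlap and with parental replicate 3 the highest. It fell by 1.91 ± 0.32 (3.77-fold lower, edgeR adjusted p = 0.0237).

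The other 3 fell from low levels to near the limit of detection. SORCS1 was at 6.00, 3.34 and 17.3 CPM in parental and at 0.70, 0.86 and 0.23 CPM in crossed libraries, and its log2 fold change was -3.87 ± 0.72 (edgeR adjusted p = 0.0388). TMEM178B was at 3.64, 2.17 and 19.1 CPM and then at 0.42, 0.59 and 0.62 CPM, and its log2 fold change was -3.93 ± 0.72 (edgeR adjusted p = 0.0388). ZNF536, under the 5 CPM asked of named genes and therefore named after its values were seen, was at 1.97, 0.90 and 2.97 CPM and then at 0.08, 0.32 and 0.23 CPM (log2 fold change -3.24 ± 0.48, edgeR adjusted p = 0.00901). For all 5 the crossed libraries spanned fewer CPM than the parental ones, at lower levels. As a ratio of highest to lowest, ZNF536 was not tighter in crossed (0.08 to 0.32 CPM) than in parental libraries (0.90 to 2.97 CPM).

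**Figure D1:**
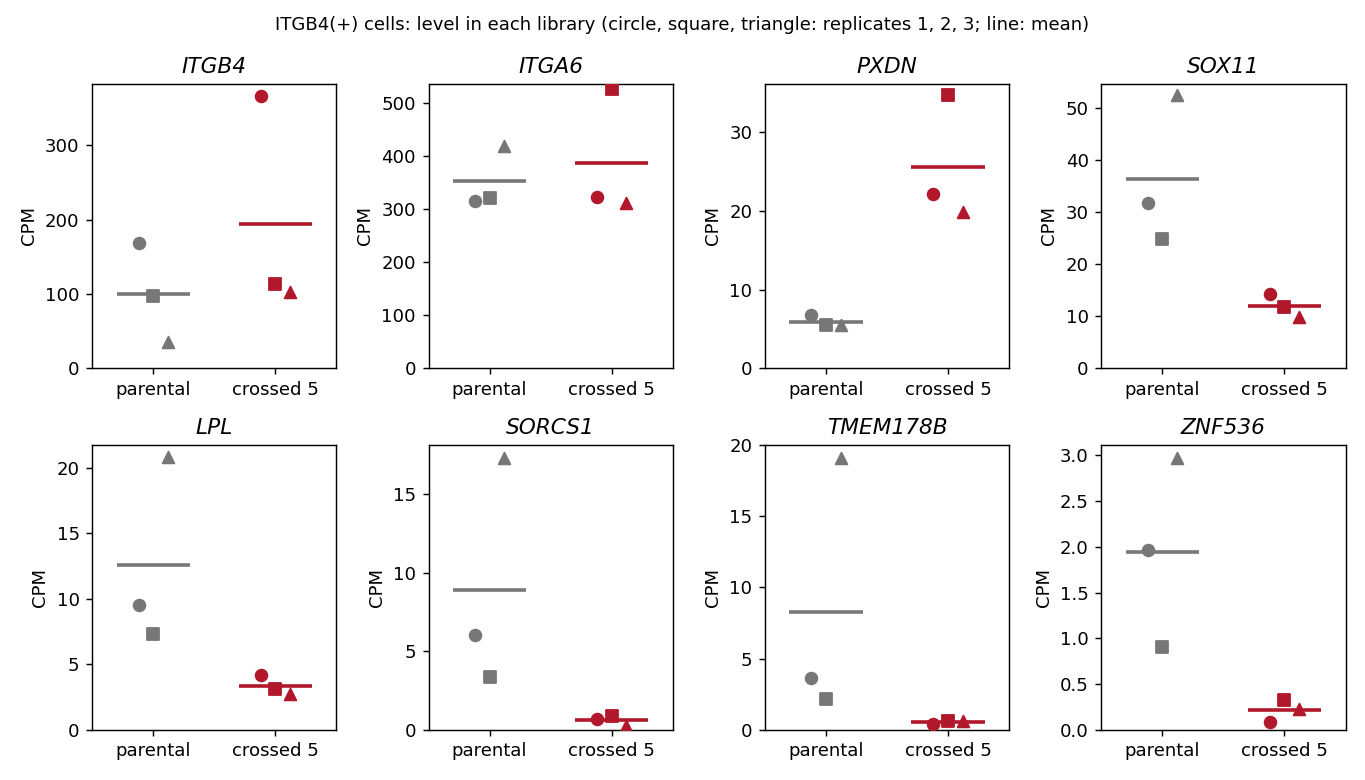
CPM (linear axes from 0) of ITGB4, its partner ITGA6 and the 6 called genes in each parental positive (grey) and crossed (red) library, with circle, square and triangle for replicates 1, 2 and 3 and a line at the mean of 3. The groups do not overlap in any of the 6 called genes, PXDN is higher after crossing, and the triangle of the parental group (replicate 3) is the highest parental value for all 5 fallen genes and the lowest for ITGB4.

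Parental replicate 3 was often the highest parental library. Among the 294 genes lower at an unadjusted p under 0.05 it was the highest parental library in 207 (70.4%), against 38.9% of all tested genes, and among the 20 lower genes called by edgeR or DESeq2 it was highest in 19. Without it edgeR called 0 genes (257 at an unadjusted p under 0.05). Its part in the calls beyond this was not tested. Without it the changes of the fallen genes were smaller in size: the log2 fold change was -2.42 for TMEM178B, -2.95 for SORCS1, -2.81 for ZNF536, -1.34 for LPL and -1.24 for SOX11. The fallen genes kept their sign in each of the 6 fits that left out 1 library, where they reached -4.38 for TMEM178B, -4.26 for SORCS1, -3.72 for ZNF536, -2.19 for LPL and -1.82 for SOX11. Without some library each lost its call: ZNF536 kept it in 3 fits (edgeR adjusted p up to 0.112), LPL and TMEM178B in 2 (up to 0.441 and 1), SORCS1 and SOX11 in 1 (up to 0.828 for both). The count was 3, 5 and 0 without parental positive replicates 1, 2 and 3, and 0, 1 and 0 without crossed replicates 1, 2 and 3. It was also 0 when only the 6 libraries were fitted with edgeR (1167 genes at an unadjusted p under 0.05), where DESeq2 called 73.

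Of the 18 further genes called by DESeq2 alone, those given here were named after their values were seen. Among the 18, SCAP, the cholesterol-sensing escort protein of the factor SREBP, had the tightest values. It was at 138, 139 and 136 CPM in parental and 91.0, 101 and 97.4 CPM in crossed libraries, with a log2 fold change of -0.52 ± 0.13 (DESeq2 adjusted p = 0.0083, edgeR adjusted p = 0.482). The groups were far apart relative to their spread, and replicate 3 was not the highest parental library. SCAMP5, a secretory carrier membrane protein, was at 20.9, 21.2 and 22.9 CPM and then at 13.8, 15.4 and 13.6 CPM (DESeq2 adjusted p = 0.0464, edgeR adjusted p = 0.483). TRPC4, a cation channel, was at 1.97, 1.48 and 1.29 CPM and then at 7.22, 4.04 and 4.82 CPM (DESeq2 adjusted p = 0.00073, edgeR adjusted p = 0.352). With AREG, the EGF receptor ligand amphiregulin, and BTBD11 it made up, beside PXDN, the 4 higher genes in DESeq2. FREM1, which with the FRAS and FREM proteins joins epithelium to underlying matrix, was at 3.11, 1.80 and 4.02 CPM and then at 0.58, 0.22 and 0.06 CPM (DESeq2 adjusted p = 0.00163, edgeR adjusted p = 0.289). RXRG, a retinoid receptor used as a mark of the neural crest-like melanoma state, was at 4.55, 2.17 and 30.3 CPM and then at 0.31, 0.16 and 0.34 CPM (DESeq2 adjusted p = 0.000451, edgeR adjusted p = 0.391).

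The transcript of the sorted protein did not separate the groups. ITGB4 was at 168, 96.7 and 35.2 CPM in parental positive and at 366, 114 and 103 CPM in crossed libraries, means of 100.1 ± 66.6 and 194 ± 149 CPM (SD, n = 3). The groups overlapped, and within both of them replicate 1 was the highest. The log2 fold change was 0.96 ± 0.84 (edgeR adjusted p = 1, and 0.721 at the lowest in any alternative fit), and it ran from 0.11 without crossed replicate 1 to 1.56 without parental replicate 1. ITGA6 was at 316, 321 and 418 CPM and then at 322, 525 and 311 CPM (log2 fold change 0.14 ± 0.27), and its sign turned without crossed replicate 2 (-0.15).

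The remaining hemidesmosome genes gave no call either. Of the 10 listed genes of the hemidesmosome and its laminin, all tested, 9 had a log2 fold change above 0 (median 0.38). Over all genes 51% were above 0 and the median was 0.006. In the 15 alternative fits 6 to 10 of the listed genes were above 0, and their median ran from 0.21 to 0.46. COL17A1, the hemidesmosomal collagen with the smallest p of the list, was at 1.48, 1.06 and 0.27 CPM and then 2.90, 1.83 and 1.25 CPM (edgeR unadjusted p = 0.204). Of 18 tested integrin subunits 7 were above 0 and none was called. ITGA9, a subunit that binds tenascin and other ligands, was at 5.43, 2.75 and 13.3 CPM and then 0.97, 1.24 and 0.40 CPM (log2 fold change -3.03 ± 0.88, edgeR unadjusted p = 0.00224), and DESeq2 called it when only the 6 libraries were fitted.

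In the matrix, PXDN was the 1 gene called by edgeR of 21 tested basement membrane genes (DESeq2 also called FREM1), of which 11 were above 0 (median 0.04). Collagen IV, the protein it crosslinks, is a trimer of COL4 chains. COL4A1 was at 314, 254 and 455 CPM and then 189, 292 and 180 CPM (edgeR unadjusted p = 0.0545), and COL4A2 at 797, 618 and 1136 CPM and then 545, 776 and 460 CPM (edgeR unadjusted p = 0.188). Both overlapped between the groups. Laminin chains LAMB1 and LAMC1, which form the trunk of most laminins, had log2 fold changes of 0.20 ± 0.51 and 0.12 ± 0.46. Of 30 interstitial matrix genes 11 were above 0 (median -0.22) and of 33 matrix proteases and inhibitors 19 were (median 0.08), with no edgeR call in either list. MMP15, a membrane-type metalloproteinase, was at 13.7, 9.32 and 19.3 CPM and then 6.91, 9.64 and 6.12 CPM.

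The melanoma state lists leaned in opposite directions, and SOX11 was their 1 gene called by edgeR. Of 27 tested genes of the dedifferentiated state 24 were above 0 (median 0.41), and none was called by edgeR. In the 15 alternative fits 17 to 25 of them were above 0. The median ran from 0.24, without crossed replicate 1, to 0.50, without crossed replicate 3. The groups were apart, with all 3 libraries of 1 group above all 3 of the other, for 6 of the 27 with the crossed libraries higher and for 0 with them lower, whereas over all genes 7.12% were apart and higher and 6.92% apart and lower. FOSL1, an AP-1 subunit, was at 352, 350 and 261 CPM and then 638, 461 and 536 CPM (edgeR unadjusted p = 0.079). WNT5A, a ligand of non-canonical WNT signalling, was at 50.8, 54.6 and 36.3 CPM and then 67.3, 86.0 and 63.4 CPM (edgeR unadjusted p = 0.00823). EGFR was at 19.0, 20.4 and 11.2 CPM and then 37.9, 25.2 and 32.4 CPM. In each of the 3 the groups were apart, and parental replicate 3 was the lowest of the 6 libraries.

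Of 22 tested neural crest genes 16 were below 0 (median -0.29), 5 were apart with the crossed libraries lower and 1 higher, and SOX11 was the 1 called by edgeR, while DESeq2 also called TFAP2B and RXRG. NES, the intermediate filament nestin, was at 310, 239 and 365 CPM and then 148, 213 and 202 CPM (edgeR unadjusted p = 0.101). TFAP2B, an AP-2 factor, was at 24.8, 13.1 and 90.2 CPM and then 1.43, 4.53 and 0.96 CPM (log2 fold change -4.22 ± 1.11, edgeR adjusted p = 0.483, DESeq2 adjusted p = 0.0275). NGFR, a receptor that marks neural crest-like cells, was at 168, 149 and 151 CPM and then 101, 88.5 and 107 CPM, apart although its unadjusted edgeR p was 0.52. TFAP2A went the other way, at 19.4, 21.2 and 15.7 CPM and then 28.5, 26.7 and 25.1 CPM (edgeR unadjusted p = 0.0468). SOX10, the lineage factor, overlapped (593, 441 and 935 CPM, then 488, 880 and 443 CPM).

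Of 14 tested melanocytic genes 8 were below 0 (median -0.30) and 4 were apart, all lower. MITF, the master factor of the pigment programme, was at 52.1, 57.1 and 64.9 CPM and then 51.1, 31.6 and 39.5 CPM (edgeR unadjusted p = 0.0212), and GPNMB, a melanosomal glycoprotein, at 94.7, 84.9 and 211 CPM and then 70.6, 77.2 and 56.5 CPM (edgeR unadjusted p = 0.00379). DCT, an enzyme of melanin synthesis, was seen in parental replicate 3 at 14.0 CPM and at most 0.38 CPM in the other 5 libraries. The melanocytic median depended on that library: without it the median was 0.03, while the neural crest median was -0.11. The markers of Schwann and neural cells moved with replicate 3 as well. Their 10 genes summed to 114 to 328 CPM in parental and 91.2 to 138 CPM in crossed libraries, none of the 10 was at 0, and 5 were above and 5 below 0. Their part in the result was not tested.

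**Figure D2:**
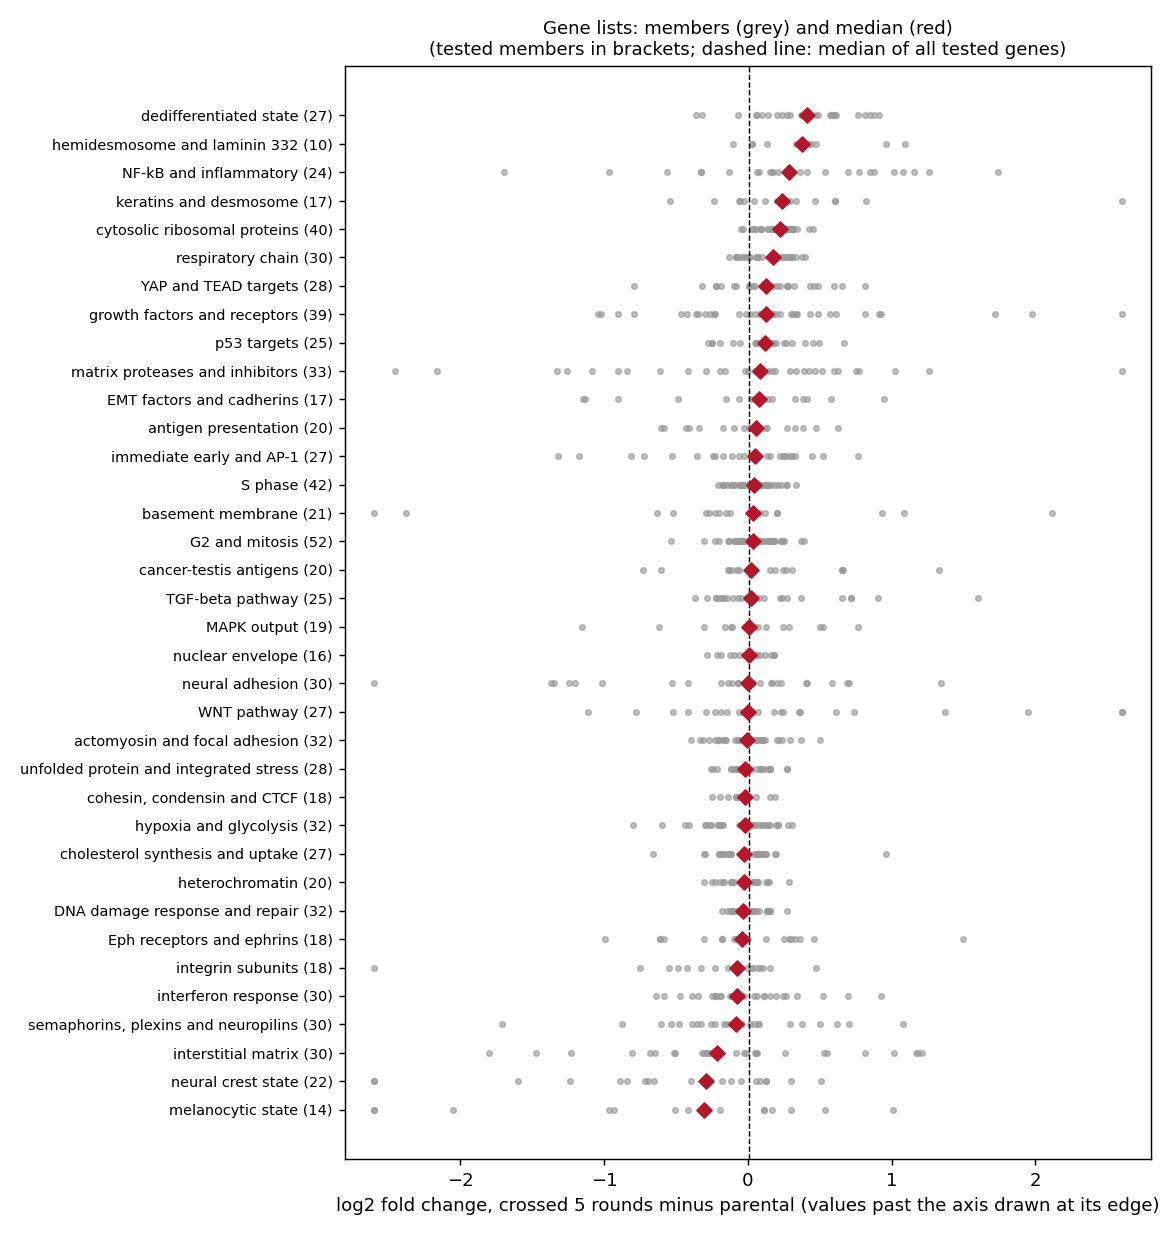
Log2 fold change (crossed 5 rounds minus parental positive) of the tested members (grey) of the gene lists with at least 10 tested members, 1 list left out, ordered by the list's median (red diamond), with the median of all tested genes dashed. The dedifferentiated (0.41) and hemidesmosome (0.38) lists have the highest medians and the melanocytic (-0.30) and neural crest (-0.29) lists the lowest, and most other medians lie near the dashed line.

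Most genes of protein synthesis and respiration had small differences above 0, and none was called by edgeR. Of 40 cytosolic ribosomal protein genes 38 were above 0 (median 0.22) and 29 were apart with the crossed libraries higher, 0 lower, beside the 7.12% of all genes that were apart in that direction. Summed, they took 40240 to 46310 CPM in parental positive and 48220 to 53460 CPM in crossed libraries. RPS4X, a protein of the small subunit, was at 1148, 1148 and 1067 CPM and then 1345, 1372 and 1344 CPM. The fit takes 1 estimate of spread over all 10 groups, and the summed level ran from 50140 to 111900 CPM in negative crossed 4 and from 46240 to 136600 CPM in Top 5 positive. The list's median stayed above 0 in all 15 alternative fits (0.14 to 0.26), the lowest without parental replicate 3.

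Of 30 nuclear-encoded respiratory chain genes 22 were above 0 (median 0.17), with 10 apart and higher and 0 lower. COX4I1, a subunit of cytochrome c oxidase, was at 349, 323 and 280 CPM and then 394, 394 and 377 CPM, and NDUFA4 at 101, 102 and 104 CPM and then 120, 133 and 117 CPM. The 4 genes of complex II, SDHA to SDHD, had log2 fold changes between -0.08 and 0.02.

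Lists of nuclear mechanics and chromatin, the functions strained in a pore, lay close to all genes. The median was 0.006 for 16 nuclear envelope genes (8 above 0), -0.02 for 18 cohesin, condensin and CTCF genes (4 above 0), -0.03 for 20 heterochromatin genes (10 above 0) and -0.03 for 32 genes of DNA damage response and repair (14 above 0). EMD, the envelope protein emerin, was at 86.9, 80.4 and 69.3 CPM and then 93.5, 87.3 and 87.1 CPM. STAG2, a cohesin subunit, was at 91.3, 114 and 134 CPM and then 99.1, 89.7 and 96.7 CPM. No member of the 4 lists was called.

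Actomyosin and focal adhesion genes gave none as well, with 15 of 32 above 0 (median -0.007).

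Among signalling lists, 21 of 28 YAP and TEAD targets were above 0 (median 0.12), 18 of 24 NF-κB and inflammatory genes (median 0.29), 25 of 39 growth factors and receptors (median 0.12) and 19 of 25 p53 targets (median 0.12), with no member called by edgeR and AREG, a growth factor, by DESeq2 (adjusted p = 0.0474). IL1B, an inflammatory cytokine, was at 2.73, 1.85 and 0.90 CPM and then 9.04, 7.54 and 1.76 CPM (log2 fold change 1.74 ± 0.69, edgeR unadjusted p = 0.0179). LIF, a cytokine of the interleukin-6 family, was at 51.3, 61.2 and 37.1 CPM and then 71.9, 91.3 and 79.4 CPM (edgeR unadjusted p = 0.0348). SPRY4, a feedback inhibitor of MAPK signalling, was at 118, 79.9 and 225 CPM and then 55.3, 85.5 and 49.1 CPM, and 10 of 19 MAPK output genes were above 0 (median 0.007). Of 7 tested caveola genes 5 were above 0 (median 0.20).

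Proliferation lists were close to all genes: 33 of 52 G2 and mitosis genes (median 0.03) and 27 of 42 S phase genes (median 0.04) were above 0. The G2 and mitosis genes summed to 7776 to 8644 CPM in parental and 7938 to 8821 CPM in crossed libraries. The 12 keratinocyte markers, by contrast, summed to 87.7 to 134 CPM and then 163 to 171 CPM without overlap, with between 2 and 5 of the 12 at 0 in a library. KRT10, a keratin, made up most of that sum, at 99.9, 105 and 72.9 CPM and then 124, 131 and 128 CPM. The 4 tested keratinocyte markers were all above 0, as were 3 of 6 fibroblast, 2 of 5 endothelial, 1 of 4 immune and 1 of 8 melanoma line markers, and none was called. The melanoma line median was -0.54, and -0.08 without parental replicate 3. Of the 32 genes that an earlier look at these data had named for sort or migration, and which are therefore no independent evidence, 16 were above and 16 below 0. SOX11 and SORCS1 were the 2 called by edgeR, beside 0.039% of all genes, DESeq2 also called FREM1, and DESeq2 on the 6 libraries alone called 7.

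The 6 called genes were then placed among all 10 groups. The 5 fallen genes had their lowest mean of the 10 groups in the crossed libraries. SOX11 averaged 11.96 ± 2.21 CPM there, below Bottom 5 negative (24.7 ± 8.10 CPM, cells that crossed in 5 rounds), Bottom 10 positive (26.7 ± 4.41 CPM) and negative crossed 4 (28.3 ± 11 CPM), which overlapped each other, and its highest mean was 114 ± 25.8 CPM in parental negative cells. LPL averaged 3.32 ± 0.76 CPM in the crossed libraries, all of which were below every library of the other groups, whose means ran from 8.54 ± 0.89 CPM in negative crossed 4 to 25.4 ± 1.21 CPM in parental negative cells. SORCS1 averaged 0.59 ± 0.33 CPM, overlapping Bottom 5 negative (1.60 ± 1.51 CPM) and below negative crossed 4 (1.64 ± 0.56 CPM), and it reached 67.7 ± 19.9 CPM in negative cells that failed to cross in 10 rounds. TMEM178B (0.55 ± 0.11 CPM) overlapped negative crossed 4 (1.24 ± 0.71 CPM). PXDN had its second-highest mean in the crossed libraries (25.6 ± 7.99 CPM), overlapping negative crossed 4 (22.2 ± 1.26 CPM), below Bottom 10 negative (47.6 ± 2.21 CPM) and above Bottom 10 positive (15.4 ± 5.50 CPM, with overlap by 1 library). These levels were read for genes already called, so they describe the order and test nothing. For some of the 5, parental positive already stood below parental negative cells: the log2 fold change was -1.64 ± 0.29 for SOX11 (edgeR adjusted p = 0.0189), -2.51 ± 0.61 for SORCS1 (edgeR adjusted p = 0.133) and -1.01 ± 0.30 for LPL (edgeR adjusted p = 0.344).

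**Figure D3:**
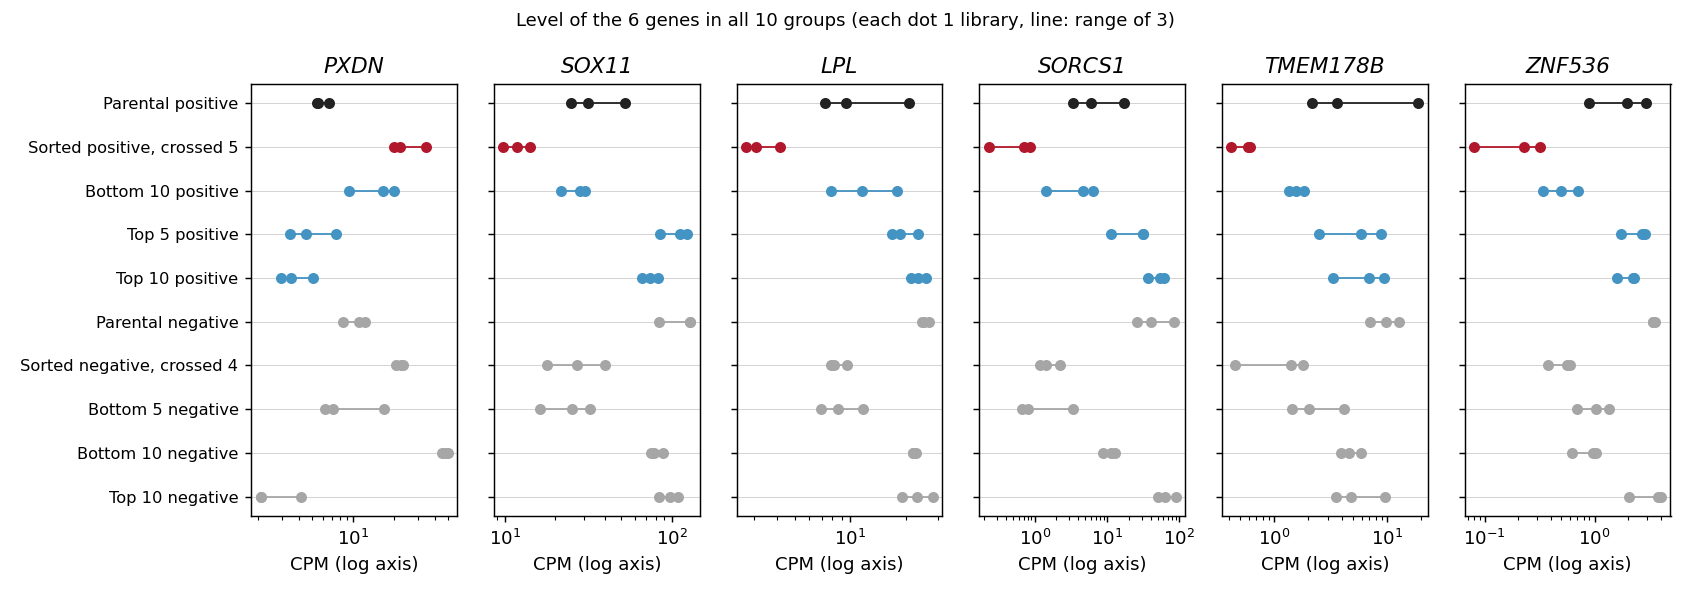
CPM (log axes) of the 6 called genes in the 3 libraries of each of the 10 groups, with a line over the range; parental positive is black, the crossed group red, other positive groups blue and negative groups grey. The crossed group lies lowest for SOX11, LPL, SORCS1, TMEM178B and ZNF536, and for PXDN only Bottom 10 negative has a higher mean.

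The negative sort, in 6 libraries that share none with the positive sort, shows how the same genes moved when cells were sorted negative and crossed in 4 rounds. Rounds differ, so the sort and the number of rounds cannot be told apart. There edgeR called 308 genes (2% of those tested), 139 (0.904%) higher and 169 (1.1%) lower, and DESeq2 called 724. The 5 genes that fell in the positive sort fell there as well: SORCS1 by 4.94 ± 0.70, TMEM178B by 3.04 ± 0.68, ZNF536 by 2.70 ± 0.44, SOX11 by 2.01 ± 0.29 and LPL by 1.57 ± 0.31 on the log2 scale (edgeR adjusted p of 0.000868, 0.0188, 0.00199, 0.00113 and 0.00807). Replicate 2 of negative crossed 4 is among the libraries that stood apart, and without it 189 genes were called, the same 5 included. Leaving out parental negative replicate 1 or 2 gave 59 and 127 calls, and there were 496 without negative crossed 4 replicate 1, and 0 when only these 6 libraries were fitted (1241 at an unadjusted p under 0.05), where the adjusted p of the 5 ran from 0.196 to 0.239. With 1 library left out TMEM178B kept its call in 3 of 6 fits and the other 4 in all 6. PXDN was at 12.3, 11.2 and 8.45 CPM in parental negative and 23.3, 20.8 and 22.5 CPM in crossed libraries, apart but not called (log2 fold change 1.06 ± 0.36, edgeR adjusted p = 0.123).

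The difference between the sorts was tested by an interaction term, for which edgeR called 0 genes (555 at an unadjusted p under 0.05, 3.61%, with 769 given by chance) and 6 in DESeq2, so a difference between the sorts in their response to crossing was not detectable for any single gene with edgeR. For PXDN the interaction was 1.06 ± 0.50 on the log2 scale (edgeR adjusted p = 0.998) and for SORCS1 1.07 ± 0.95 (edgeR adjusted p = 0.998). All 24 genes called by edgeR or DESeq2 in the positive sort had the same sign in the negative sort, and 16 of them were called there by edgeR. Of the 463 genes at an unadjusted p under 0.05 in the positive sort, 395 had the same sign in the negative sort. The share of all tested genes with the same sign was not counted, so what these counts add to it is not known. Across all 15381 genes the log2 fold changes of the sorts had a Pearson r of 0.12 and a Spearman correlation of 0.46, a description across genes that share libraries and are not independent replicates. Of the G2 and mitosis genes 50 of 52 were above 0 in the negative sort (median 0.56, with 50.6% of all genes above 0) beside 33 of 52 in the positive sort, and parental negative libraries ranged widely, from 3700 to 8118 CPM summed.

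**Figure D4:**
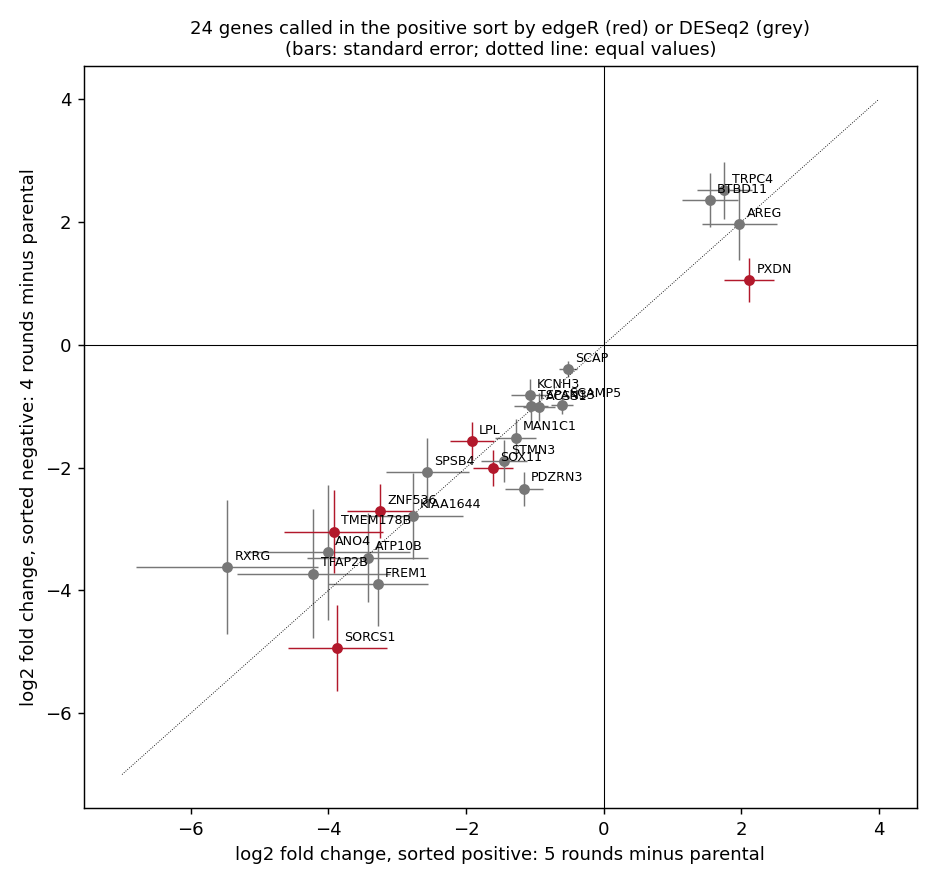
Log2 fold change after crossing in the positive sort (x axis, 5 rounds) and in the negative sort (y axis, 4 rounds) for the 24 genes called in the positive sort by edgeR (red) or by DESeq2 alone (grey), with SE bars and a dotted line of equal values. All 24 lie below 0 on both axes or above 0 on both, and PXDN lies to the right of the dotted line.

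Chromosome 20 stood out among the chromosomes, a pattern read after the comparison and not tested. Of its 410 tested genes, 302 (73.7%) were below 0, with a median log2 fold change of -0.14, whereas the medians of the other 22 chromosomes lay between -0.063 and 0.069. On chromosome 20, 83 genes (20.2%) were apart with the crossed libraries lower, beside 6.92% of all genes, and 10 with them higher. None was called by edgeR, and ACSS1 and STMN3 were called by DESeq2 (adjusted p of 0.0409 and 0.0368). ACSS1, a mitochondrial enzyme that makes acetyl-CoA from acetate, was at 21.4, 17.6 and 27.6 CPM and then 12.7, 11.7 and 10.4 CPM. HM13, the signal peptide peptidase, was at 175, 164 and 189 CPM and then 125, 147 and 126 CPM (log2 fold change -0.41 ± 0.14, edgeR unadjusted p = 0.00928). PRPF6, a splicing factor, was at 230, 238 and 202 CPM and then 175, 166 and 182 CPM. With 389 of the genes put in chromosome order and divided into 10 blocks of 38 or 39, each block had a median below 0, from -0.24 to -0.06, so the shift was spread along the chromosome.

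The shift was alike in the replicates. The level of chromosome 20 genes was taken in each library as their median deviation from the mean of all 30 libraries, less that of all genes, on the log2 scale. It was 0.034, -0.001 and -0.016 in parental positive replicates 1 to 3 and -0.145, -0.143 and -0.135 in the crossed libraries. Negative crossed 4 (-0.24 to -0.17) and Bottom 5 negative (-0.23 to -0.16) were low too, and the other 6 groups ran from 0.036 to 0.128. The 3 low groups are the ones that crossed in 4 or 5 rounds. Bottom 10 cells, which crossed in 10 rounds, were not low, at 0.036 to 0.084 in the negative and 0.084 to 0.11 in the positive sort. Gene dosage was not measured, and its part in the result was not tested.

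**Figure D5:**
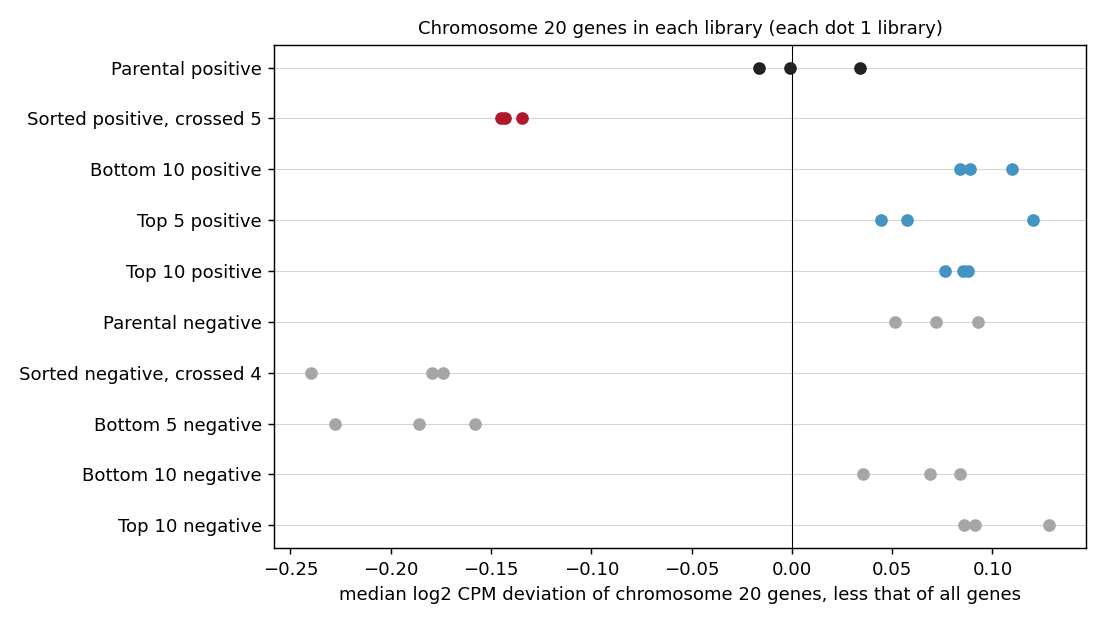
Level of chromosome 20 genes in each of the 30 libraries, as the median log2 CPM deviation of 410 genes from their mean over all libraries, less that of all genes. The 3 libraries of the crossed group (red) sit at -0.145 to -0.135, below the parental positive libraries (black, -0.016 to 0.034), with negative crossed 4 and Bottom 5 negative lower still.

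Set against positive cells that failed to cross in as many rounds (Top 5 positive), the crossed cells differed in 315 genes (2.05% of those tested), 128 (0.832%) higher and 187 (1.22%) lower by edgeR. The order of sorting and migration differs here as well, so it cannot be told apart from crossing. All 6 genes called against parental cells were called here too, with the same sign, though the crossed libraries are shared by both comparisons. Among named genes PGM5, a junction protein, was at 0.16, 0.86 and 0.67 CPM in Top 5 and 20.1, 7.92 and 7.88 CPM in crossed libraries (log2 fold change 4.35 ± 0.58, edgeR adjusted p = 0.000197), yet parental positive cells already held 16.1, 15.5 and 9.21 CPM. MME, the peptidase neprilysin, was at 0.80, 0.68 and 0.87 CPM in Top 5 and 20.4, 3.56 and 6.69 CPM in crossed libraries (edgeR adjusted p = 0.00478). Parental positive cells held 5.73, 5.30 and 1.83 CPM of MME, above Top 5 and overlapping the crossed libraries. Crossed minus parental positive, its log2 fold change was 1.26 ± 0.61 (edgeR unadjusted p = 0.0495). SLCO1B3 and TRPC4 were higher as well (log2 fold changes 4.47 ± 0.62 and 3.91 ± 0.48). TESC, a calcium-binding protein, was at 66.3, 15.1 and 12.4 CPM in Top 5 and 0.77, 0.81 and 1.42 CPM in crossed libraries (edgeR adjusted p = 0.00102), and RXRG and TFAP2B were lower by edgeR too (log2 fold changes -6.90 ± 1.37 and -6.59 ± 1.22). Of the 27 dedifferentiated genes 26 were above 0 (median 0.83, 2 called), beside 47.6% above 0 and a median of -0.03 over all genes. Replicates 1 and 3 of Top 5 positive are among the libraries that stood apart: without the 6 such libraries the count was 66, and without replicate 1 or 2 of Top 5 positive it was 116 and 1287.

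Against positive cells that crossed in 10 rounds (Bottom 10 positive), in which the order of sorting and crossing also differs, 32 genes were called (0.208%), 10 (0.065%) higher and 22 (0.143%) lower. LPL was at 11.5, 17.8 and 7.87 CPM in Bottom 10 and lower in the crossed libraries (log2 fold change -1.90 ± 0.32, edgeR adjusted p = 0.00749), the 1 gene of the 6 called here; PXDN had a log2 fold change of 0.74 ± 0.35 and SOX11 of -1.16 ± 0.29 (edgeR adjusted p = 0.561 and 0.113). For PTPRD, TMPRSS15 and ANKRD30A the parental positive values lay beside those of the crossed cells. PTPRD, a receptor tyrosine phosphatase, was at 1.74, 1.08 and 2.10 CPM in crossed, 1.02, 1.69 and 1.01 CPM in parental and 16.8, 18.4 and 5.13 CPM in Bottom 10 libraries (edgeR adjusted p = 0.00204 against Bottom 10). TMPRSS15, the protease enteropeptidase, was at 13.4, 6.84 and 10.0 CPM in crossed, 7.44, 7.47 and 8.47 CPM in parental and 65.8, 86.5 and 32.1 CPM in Bottom 10 libraries (edgeR adjusted p = 0.00891). ANKRD30A, a breast differentiation antigen, was at 14.1, 10.6 and 14.2 CPM in crossed, 10.7, 11.4 and 8.54 CPM in parental and 1.17, 1.21 and 1.51 CPM in Bottom 10 libraries (edgeR adjusted p = 5.92e-05). MFSD12, a transporter of lysosomes and melanosomes, was at 71.3, 99.8 and 90.7 CPM in crossed and 313, 397 and 288 CPM in Bottom 10 libraries (edgeR adjusted p = 0.000347). DEPDC7 was lower and SLCO1B3 and ZNF208 were higher in crossed than in Bottom 10 cells (log2 fold changes -2.47 ± 0.48, 3.45 ± 0.56 and 1.84 ± 0.32). Bottom 10 positive replicate 3 is among the libraries that stood apart; without it 14 genes were called, and without all 6 such libraries 73.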

How the data were processed

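Polyadenylated RNA of A375 cells was sequenced in 30 libraries, of which the 6 of the positive sort before and after 5 rounds of crossing are compared. Each deposited file gave, for 1 library, the authors' raw read counts by gene symbol. The submitters' processing notes name STAR, HTSeq, DESeq and the build hg19. Versions, strand setting and annotation are not given in the sources used here, so overlapping, antisense and near-identical genes may share reads. Rows that name no gene (22.96 to 26.05% of the reads in the 6 files) were left out.

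Genes were kept by edgeR's filter (minimum count 10, minimum total 15), scaled by TMM and tested with edgeR 4.0.16 in R 4.3.3 (quasi-likelihood, all 10 groups in 1 fit, Benjamini-Hochberg adjustment over 15381 genes at 0.05). Standard errors (SE) were taken as the absolute log2 fold change over the root of the F statistic. A prior count of 2 entered log levels. On simulated data of this comparison (15160 genes), the test called 20 of 100 genes set to a 2-fold change and 66 of 100 set to a 4-fold change. Of 90 calls 4 were false, and most 2-fold changes were missed. The simulation gave each gene the same spread in all 10 groups. In the data the median SD ran from 0.207 to 0.48 between groups, so these rates may not hold there. For a single value, 3 against 3 libraries allow an exact permutation p of 0.1 at the smallest, so values were compared through the model.

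The members, lists and comparisons were chosen with earlier results of these data known. Named genes were ITGB4, ITGA6, up to 15 called genes each way (4 in the other comparisons) at a mean of at least 5 CPM without overlap of the libraries, up to 4 called members of a list and, in a list without calls, the member with the smallest p. Other members are given by their values. A list is described by its counts and median beside those of all genes, with no test. "Apart" means that all 3 libraries of 1 group lie above all 3 of the other. Symbols were matched to RefSeq chromosomes for 98.3% of genes. The alternatives were DESeq2 1.42.0, RLE scaling, no filter, a replicate block, only the compared groups, and leaving out each library. Added after the data were seen were a fit without 6 libraries that stood apart (second principal component above 30), a fit of the 12 parental and presorted libraries, DESeq2 on the 6 libraries and, for the negative sort, each alternative but the last 2. Cells grown from a single cell, which the series also names, were not analysed here. Some list members and lists are not reported here.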

Additional observations from a re-analysis of the deposited data

How the results depend on the processing

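The 6 genes called between crossed and parental positive cells kept their signs in all alternatives run, and the same 6 were called with RLE scaling and without the filter. The count was 24 with DESeq2, 0 with only the compared groups in the fit, 3 without the 6 libraries that stood apart, 1 with the 12 parental and presorted libraries, 73 with DESeq2 on the 6 libraries, and 0 to 5 when 1 library was left out. The interaction with the sort had 0 calls, 6 with DESeq2, 2 without the 6 libraries and 0 to 1 when 1 library was left out (1 without negative crossed 4 replicate 2). Against Top 5 positive the 315 calls became 801 with DESeq2, 1 with only the compared groups, 66 without the 6 libraries and 97 to 1287 without 1 library. Against Bottom 10 positive the 32 calls became 136 with DESeq2, 18 without the filter, 2 with only the compared groups, 73 without the 6 libraries and 7 to 14 without 1 library. In the negative sort the 308 calls became 724 with DESeq2, 0 with only the compared groups and 59 to 496 without 1 library. The cause of these changes was not tested. Among single genes ITGA6 reversed without crossed replicate 2 and KDR without parental positive replicate 3. With 1 library left out, ITGA6 ran from -0.15 to 0.28 and KDR from -1.74 to 0.18, and neither passed the threshold in any fit.

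Replicate numbers did not pair parental positive with crossed samples. Libraries with the same number correlated at 0.255, -0.237 and -0.25 after group means were removed, and those with different numbers at up to 0.345. In the negative sort the same-number values were 0.359, 0.03 and 0.299, and different numbers reached 0.209. Between Top 5 positive and crossed libraries the same-number values were 0.197, 0.05 and 0.323, all above those of different numbers (up to 0.029). Between Bottom 10 positive and crossed libraries they were 0.183, -0.242 and 0.177, with different numbers up to 0.307. With a replicate block the count was 5 in the fit of all groups and 0 in that of the compared groups. For the interaction the block left 0, for Top 5 positive it gave 471 and 3, for Bottom 10 positive 66 and 34, and for the negative sort 477 and 1. In the simulation, at 3 libraries a group, most 2-fold changes were missed, and genes under 1 CPM rest on few reads.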
